A study of Mus musculus with 4 samples.

Results

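Klk8, Car6, Emb and Gpx3 are 4 of the 33696 genes listed in single-cell libraries of mouse peritoneal immune cells. They were chosen, with results of these data known, for being higher in macrophages of high-fat-fed (HFD) than of chow-fed (CD) mice, so their ratios between the diets are given as a description, with no test. Each gene stands on 1 row of the matrices. Wild-type mice were fed HFD or CD from 4 weeks of age for 3 months, cells were washed from the peritoneal cavity with medium, and those with the leukocyte protein CD45 were sorted by flow cytometry. Each diet has 1 expression library and 1 B-cell receptor library. The sources used here give neither the strain nor the number of mice behind a library, and 1 treatment note names the high-fat diet for CD mice as well, so that the groups were taken from sample titles and the series design. Intervals are 95% intervals and cover counting error alone; how much mice or preparations vary is unknown here.

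Klk8, kallikrein-related peptidase 8 or neuropsin, is a secreted serine protease best known from skin and hippocampus. Car6 is the secreted carbonic anhydrase, an enzyme of saliva that interconverts carbon dioxide and bicarbonate. Emb, embigin, is a membrane glycoprotein of the immunoglobulin family, related to basigin and neuroplastin, which acts in adhesion and as a partner of monocarboxylate (lactate) transporters. Gpx3 is the secreted, plasma glutathione peroxidase, a selenoprotein that reduces hydroperoxides. Large peritoneal macrophages are the resident macrophages of the cavity, kept by the transcription factor GATA6 and renewed mostly by division in place, and macrophages with Folr2, a folate receptor, and Cbr2, a carbonyl reductase, form a smaller group that can carry Lyve1 and Cd163.

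The 4 genes lie on different chromosomes and were all higher in HFD in the same classes of cells, so their promoter windows are shown side by side. Each is 300 bases around the RefSeq start site in build GRCm38.p6, which is older than the build in the submitters' notes, on the gene's strand, with motif matches in capitals. Klk8 is at chr7:43797327-43797626 (+), Car6 at chr4:150201086-150201385 (-), Emb at chr13:117220323-117220622 (+) and Gpx3 at chr11:54902604-54902903 (+).
Klk8: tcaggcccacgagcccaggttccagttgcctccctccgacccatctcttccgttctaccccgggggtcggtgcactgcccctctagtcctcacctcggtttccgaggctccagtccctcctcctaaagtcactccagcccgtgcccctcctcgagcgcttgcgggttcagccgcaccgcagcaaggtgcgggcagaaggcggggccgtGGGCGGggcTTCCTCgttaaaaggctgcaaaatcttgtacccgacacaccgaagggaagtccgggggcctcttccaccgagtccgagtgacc
Car6: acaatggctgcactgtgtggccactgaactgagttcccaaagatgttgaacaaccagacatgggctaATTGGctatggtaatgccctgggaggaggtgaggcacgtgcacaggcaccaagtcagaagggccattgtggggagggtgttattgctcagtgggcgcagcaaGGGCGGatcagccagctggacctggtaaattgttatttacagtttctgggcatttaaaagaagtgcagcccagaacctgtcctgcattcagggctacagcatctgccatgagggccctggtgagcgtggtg
Emb: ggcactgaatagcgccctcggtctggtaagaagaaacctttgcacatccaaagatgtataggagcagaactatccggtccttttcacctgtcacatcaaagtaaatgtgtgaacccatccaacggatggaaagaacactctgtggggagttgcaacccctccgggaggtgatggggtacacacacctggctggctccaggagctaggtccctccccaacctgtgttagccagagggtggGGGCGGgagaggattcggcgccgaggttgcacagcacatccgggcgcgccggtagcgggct
Gpx3: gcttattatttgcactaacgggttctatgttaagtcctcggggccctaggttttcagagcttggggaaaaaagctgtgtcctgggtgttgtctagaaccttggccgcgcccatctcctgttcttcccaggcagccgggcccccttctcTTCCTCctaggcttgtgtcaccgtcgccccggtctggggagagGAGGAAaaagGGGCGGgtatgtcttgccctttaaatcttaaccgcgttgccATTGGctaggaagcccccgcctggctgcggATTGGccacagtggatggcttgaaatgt
The letters searched, on both strands, were GATAA (GATA factors), GAGGAA (the ETS factor PU.1), AGGTCA (a nuclear receptor half-site), TGANTCA (AP-1), GGGCGG (SP1 and KLF factors) and CCAAT (NF-Y). No matches overlapped. GGGCGG stood once in each of the 4 windows and in 35.7% of 32851 promoter windows of the same length. GAGGAA stood once at Klk8 and in 2 places at Gpx3, against 28.3% of all windows with a match, and CCAAT once at Car6 and in 2 places at Gpx3, against 37.4%. The GATA, nuclear receptor and AP-1 letters were in none of the 4 windows; 25.4%, 16.3% and 7.81% of all windows hold them. These are matches of letters, and the libraries do not measure start sites.

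Large macrophages were barcodes with 5 or more unique molecular identifiers (UMIs, each standing for 1 captured RNA molecule) of Adgre1, Prg4, Alox15 and Garnl3 and with 2 or fewer of Folr2 and Cbr2; Folr2 macrophages had 3 or more of Folr2 and Cbr2. Barcodes with a receptor contig were left out, 97 of 1438 in HFD and 397 of 2461 in CD large macrophages, and 10 of 202 in HFD and 32 of 226 in CD Folr2 macrophages. This left 1341 HFD and 2064 CD large macrophages and 192 HFD and 194 CD Folr2 macrophages, of 6684 HFD and 13069 CD barcodes kept. The libraries shared 30 barcode sequences, none of them among the large macrophages of both. Median depth in large macrophages was 11546 UMIs in HFD and 4754.5 in CD, and in Folr2 macrophages 18053 in HFD and 8251 in CD. Markers outside the gate were present in both libraries but at unequal levels. Gata6 was at 133 CPM (UMIs per 1000000 UMIs of the class) in HFD and 97.4 in CD large macrophages, Icam2 at 1286 and 1025 CPM, and F5 at 666 and 382 CPM. Other genes had the opposite direction: F13a1 was at 37.9 CPM in HFD and 318 in CD, found in 17.1% and 59.4% of barcodes, Timd4 at 95.7 and 226 CPM, Lrg1 at 363 and 567, Igf1 at 26.9 and 63.0, and Ccr2 at 18.7 and 33.8. The class thus differed between the libraries in more than the 4 genes; a split by Timd4 is given below, and the part of the other markers in the results was not tested. Folr2 macrophages carried the large-macrophage genes too, since 96.4% of them in HFD and 92.3% in CD had 5 or more UMIs of the first gate's markers, and Lyve1 was at 72.7 CPM in HFD and 145 in CD, against 1.08 and 18.2 CPM in large macrophages. The Folr2 gate therefore marks a range within macrophages that share the resident markers, and 48 HFD and 49 CD barcodes sat at exactly 3 UMIs, with 64 HFD and 107 CD just outside at 2.

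RNA of other cells differed between the libraries. The 6 B-cell markers summed to 248.6 CPM in HFD and 1066 CPM in CD large macrophages, and the 6 T-cell markers to 26.8 and 45.9 CPM, all of them detected in both. All 5 mesothelial markers were at 0 UMIs in HFD large macrophages and 4 of 5 were in CD, where Msln had 1 UMI. Of 4 adipocyte markers 3 were at 0 in HFD and 2 in CD, and Col1a1, Col1a2, Pdgfra and both erythroid markers were at 0 in both libraries. The part of other cells' RNA in the results is given below for T and B cells and was not tested for others. Mki67 or Top2a, genes of dividing cells, were found in 14.6% of HFD and 3.92% of CD large macrophages.

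All 4 genes were higher in HFD large macrophages. Of 12591 genes with 20 UMIs or more over both sums, 3.42% were 2-fold or more higher in HFD, 6.85% were 2-fold or more lower and 10.3% were one or the other, and the median log2 ratio over all of them was -0.06. The choice of the 4 genes used this contrast, so nothing is read from their place among the others. Klk8, the protease, gave 1098 UMIs in HFD and 163 in CD, or 62.3 CPM in HFD (58.7 to 66.1) and 12.5 CPM in CD (10.6 to 14.5), a log2 ratio of 2.32 (2.08 to 2.57). Car6, the carbonic anhydrase, gave 2145 and 431 UMIs, or 122 CPM in HFD (117 to 127) and 33.0 CPM in CD (29.95 to 36.3), a log2 ratio of 1.88 (1.73 to 2.04). The adhesion protein gene Emb gave 1783 and 326 UMIs, or 101 CPM in HFD (96.6 to 106) and 24.96 CPM in CD (22.3 to 27.8), a log2 ratio of 2.02 (1.85 to 2.19). Without barcodes that held 2 or more UMIs of B-cell or of T-cell markers, the Emb ratio was larger, at 2.62 (2.32 to 2.94). Gpx3, the peroxidase, was the least counted of the 4, with 394 UMIs in HFD and 84 in CD, or 22.4 CPM in HFD (20.2 to 24.7) and 6.43 CPM in CD (5.13 to 7.96), a log2 ratio of 1.80 (1.46 to 2.16). In each of the 4 genes the intervals of the libraries were apart.

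Folr2 macrophages showed the same direction for all 4, beside 3.43% of 9870 measured genes that were 2-fold or more higher there, 4.97% that were lower and 8.41% in either direction. Klk8 gave 251 UMIs in HFD and only 8 in CD, or 70.7 and 3.91 CPM, a log2 ratio of 4.18 (3.18 to 5.40). In CD it was found in 3.61% of Folr2 macrophages (1.46 to 7.29%), and the interval takes in the 2.12% of CD B-cell barcodes that held a UMI at a median of 4504 UMIs, so the CD level is not told from background here and the ratio is uncertain in size. With stricter gates, at 6 or more UMIs of Folr2 and Cbr2, Klk8 gave 140 UMIs in HFD and 1 in CD, a log2 ratio of 6.36 (3.86 to 11.7). Car6 had 145 CPM in HFD, against 40.1 in CD (log2 1.86; 1.52 to 2.21). Gpx3 had 30.7 CPM, against 4.40 (log2 2.80; 1.83 to 3.97), and rests on 9 UMIs in CD. Over the alternative settings the log2 ratio of Gpx3 ran from 1.65 to 3.56 and that of Klk8 from 2.65 to 6.36. The lowest value of each had 0 UMIs in CD and was computed with CD at a floor of 3 UMIs. The intervals there started at 0.96 for Gpx3 and 2.16 for Klk8 and had no upper end. Emb had 75.3 CPM in HFD, against 21.5 in CD (log2 1.81; 1.34 to 2.30). The Emb ratio was 0.94 (-0.09 to 2.02) at equal depth without cycling barcodes, where 22 UMIs in HFD stood against 14 in CD and the interval took in 0. It was 1.26 (0.74 to 1.80) without cycling barcodes alone, and 2.43 (1.69 to 3.26) without barcodes with B- or T-cell markers.

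**Figure D1:**
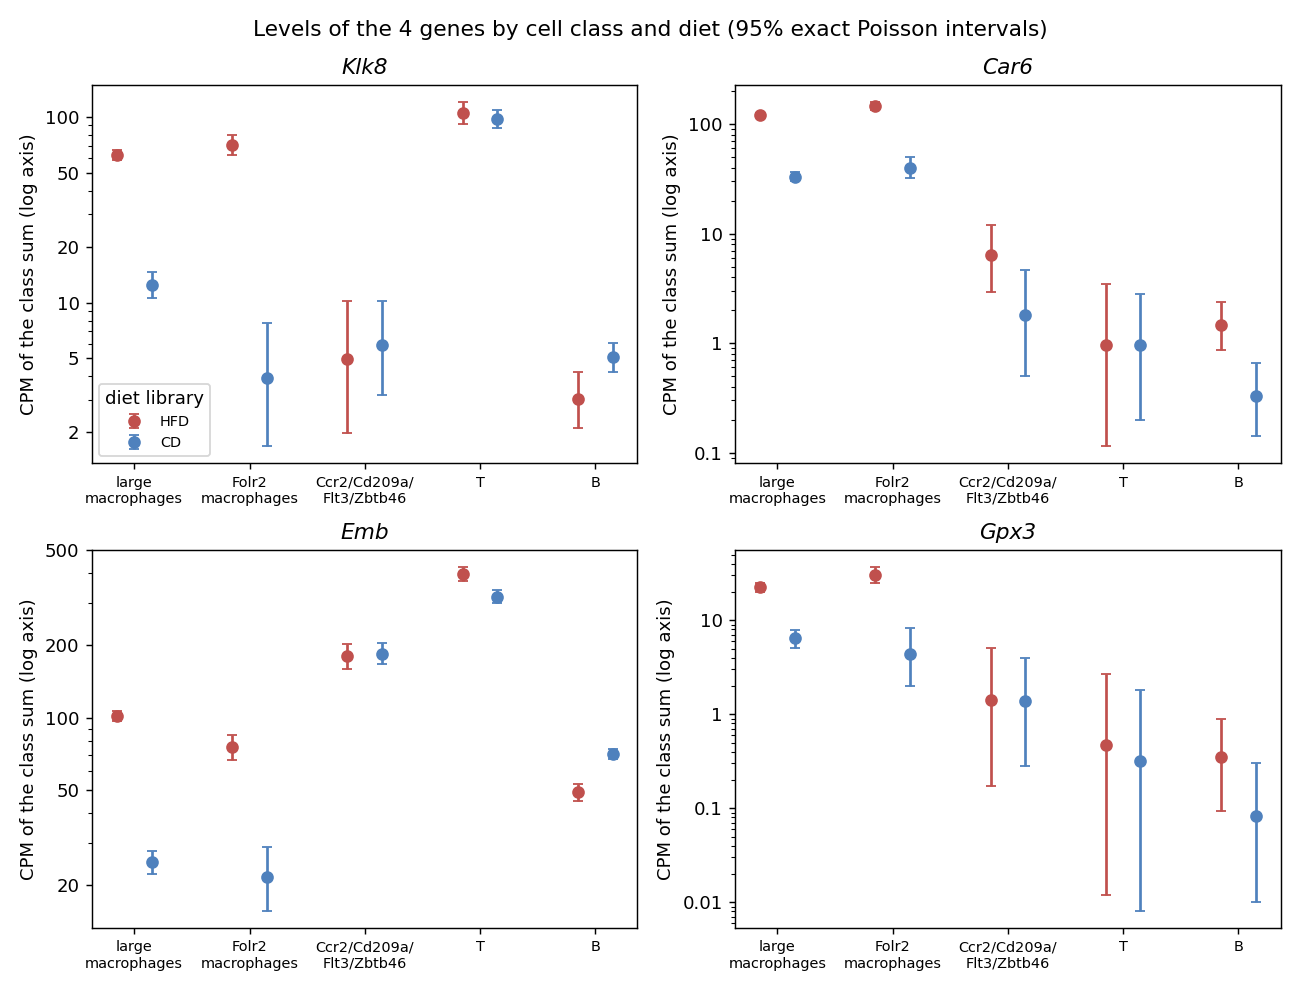
Levels of Klk8, Car6, Emb and Gpx3 in CPM of the class sum (log axis) in 5 classes of barcodes, with HFD in red left of CD in blue and bars for 95% exact Poisson intervals. Macrophages of both kinds are higher in HFD for every gene, while T barcodes hold Klk8 near 100 CPM in both libraries.

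Outside macrophages the 4 genes parted into pairs. Car6 and Gpx3 lay mostly in the macrophage gates: 93.3% of all Car6 UMIs of kept HFD barcodes and 80.4% of those in CD lay in large and Folr2 macrophages, and for Gpx3 93.1% and 79.5%. These barcodes held 37.0% of all UMIs in HFD and 20.6% in CD. B-cell barcodes, defined by a receptor contig and 0 UMIs of the gate genes, held a Car6 UMI in 1.01% in HFD and 0.177% in CD, at median depths of 5803 and 4504 UMIs, and a Gpx3 UMI in 0.178% in HFD and 0.0442% in CD.

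Klk8 and Emb were also high in T barcodes. These, with 3 or more UMIs of T-cell markers, no contig and 0 UMIs of the gate genes, had Klk8 at 105 CPM in HFD and 97.8 in CD (log2 0.11; -0.15 to 0.36), with an interval that took in 0. There Emb was at 398 CPM in HFD and 320 in CD, a log2 ratio of 0.31 (0.18 to 0.45). B-cell markers summed to 432 CPM in HFD and 1751 in CD T barcodes, against 7754 and 7702 CPM in B barcodes. The part of other cells' RNA in the ratios of T barcodes was not tested. Among the 5 classes plotted, the order of Klk8 levels in HFD was T barcodes, then Folr2 and large macrophages, whose intervals overlapped (62.3 to 80.1 and 58.7 to 66.1 CPM), then barcodes marked by Ccr2, Cd209a, Flt3 or Zbtb46 at 4.95 CPM and B barcodes at 3.04 CPM, whose intervals also overlapped. In CD it was T barcodes, large macrophages at 12.5 CPM, and then the Ccr2, Cd209a, Flt3 or Zbtb46 barcodes at 5.93, B barcodes at 5.06 and Folr2 macrophages at 3.91 CPM, with overlapping intervals. For Emb the order of these 5 classes in HFD was T barcodes, the Ccr2, Cd209a, Flt3 or Zbtb46 barcodes at 180.3 CPM, large macrophages at 101, Folr2 macrophages at 75.3 and B barcodes at 48.7 CPM, with the intervals of the 5 apart. In CD the macrophages were the lowest of these classes, at 24.96 and 21.5 CPM with overlapping intervals, below B barcodes at 70.7 CPM. Outside these 5, the 14 HFD and 16 CD NK barcodes had Emb at 134 CPM (49.3 to 293) and 398 CPM (236 to 628). In HFD the NK interval lay below that of T barcodes and overlapped those of the other classes. In CD it overlapped that of T barcodes and lay above those of the other classes. These few NK barcodes gave 0 Klk8 UMIs, with intervals up to 82.7 CPM in HFD and 81.5 CPM in CD. All remaining kept barcodes had Emb at 88.6 CPM in HFD (84.6 to 92.7), overlapping Folr2 macrophages, and 78.4 CPM in CD (75.2 to 81.7), and Klk8 at 16.3 and 7.84 CPM. Macrophages held 69.0% of the Klk8 UMIs of kept barcodes in HFD and 20.5% in CD, and 36.8% and 6.43% of the Emb UMIs.

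The levels of Klk8 and Emb in macrophages were set beside the T- and B-cell RNA in the same barcodes. T-cell markers in large macrophages stood at 0.984% of their level in T barcodes in HFD and at 1.92% in CD. RNA of T barcodes at those shares would carry 1.04 CPM of Klk8 in HFD and 1.88 CPM in CD, and 3.91 and 6.15 CPM of Emb. B-cell markers stood at 3.21% of their level in B barcodes in HFD and 13.8% in CD, at which B RNA would carry 1.56 CPM of Emb in HFD and 9.79 CPM in CD. In large macrophages with 0 UMIs of T-cell markers Klk8 was at 64.1 CPM in the 1184 HFD barcodes and 11.1 CPM in the 1808 CD barcodes. In those with 0 UMIs of B-cell markers Emb was at 107 CPM in the 441 HFD barcodes and 13.4 CPM in the 483 CD barcodes.

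Depth moved with diet, so the levels were set side by side in barcodes of like depth. All 4 genes were higher in HFD in each of 4 depth bins, and the interval of the ratio reached 0 only for Gpx3 in the lowest bin. Klk8 was at 96.0, 54.5, 58.7 and 64.9 CPM in HFD and at 14.7, 9.88, 11.8 and 15.6 CPM in CD, in the bins that start at 2000, 4000, 8000 and 16000 UMIs. Car6 was at 71.2, 85.0, 111 and 134 CPM in HFD and at 24.5, 31.2, 36.0 and 36.1 CPM in CD, and was higher in each deeper HFD bin. Emb was at 80.5, 85.0, 102 and 105 CPM in HFD, against 25.6, 24.2, 26.6 and 24.2 CPM in CD. Gpx3 was at 18.6, 21.2, 24.1 and 21.8 CPM in HFD, against 8.71, 7.28, 4.80 and 6.56 CPM in CD, with 6 UMIs in HFD and 16 in CD in the lowest bin.

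**Figure D2:**
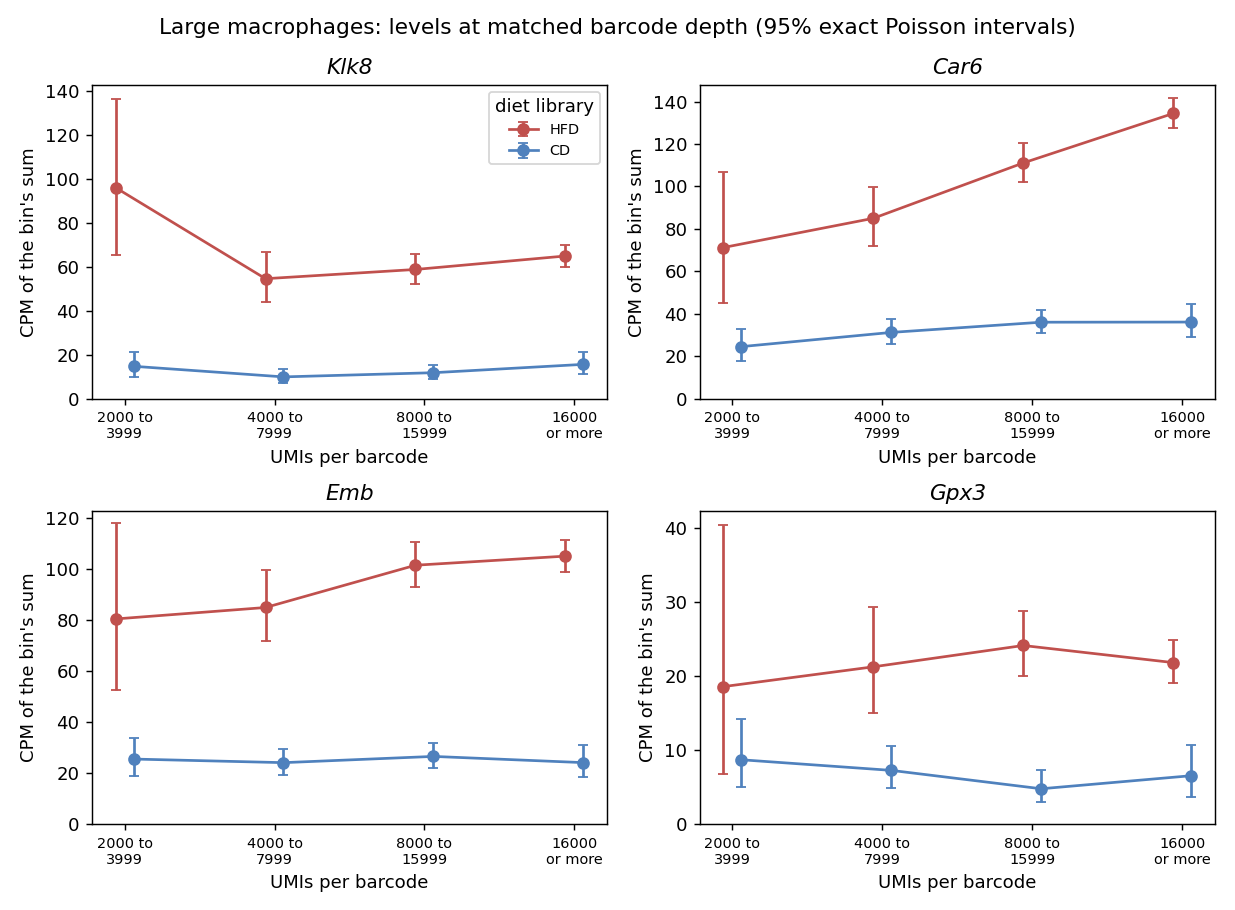
CPM of each gene in large macrophages grouped by UMIs per barcode, with HFD in red and CD in blue, points for the sum over a bin's barcodes and bars for 95% exact Poisson intervals. HFD lies above CD in every bin of every gene, with Klk8 between 54.5 and 96.0 CPM in HFD and between 9.88 and 15.6 CPM in CD.

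Detection followed the same order at equal depth. At deposited depth Klk8 was found in 35.9% of HFD large macrophages (33.4 to 38.6%) and 6.40% of those in CD (5.38 to 7.54%), against 1.66% of HFD and 2.12% of CD B barcodes at median depths of 5803 and 4504 UMIs. After each barcode was thinned to 3000 UMIs, which left out 112 HFD and 523 CD large macrophages that were shallower, it was 14.6% in HFD and 2.79% in CD. Car6 was found in 59.8% and 15.1% at deposited depth and in 26.7% and 8.37% thinned. Emb was found in 49.4% and 12.3%, or 23.9% and 6.94% thinned; B barcodes also hold Emb, and no class here serves as its background. Gpx3 was found in 19.9% and 3.25%, or 6.51% and 2.14% thinned. Leaving out barcodes with Mki67 or Top2a as well gave 15.1% and 2.78% for Klk8, 25.8% and 8.28% for Car6, 22.8% and 6.72% for Emb, and 6.37% and 2.10% for Gpx3. In Folr2 macrophages thinned the same way, Klk8 was in 11.5% of 192 HFD barcodes and in 0 of 187 CD barcodes (up to 1.95%), Car6 in 27.6% and 8.56%, Emb in 16.7% and 7.49%, and Gpx3 in 10.9% and 1.07%.

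**Figure D3:**
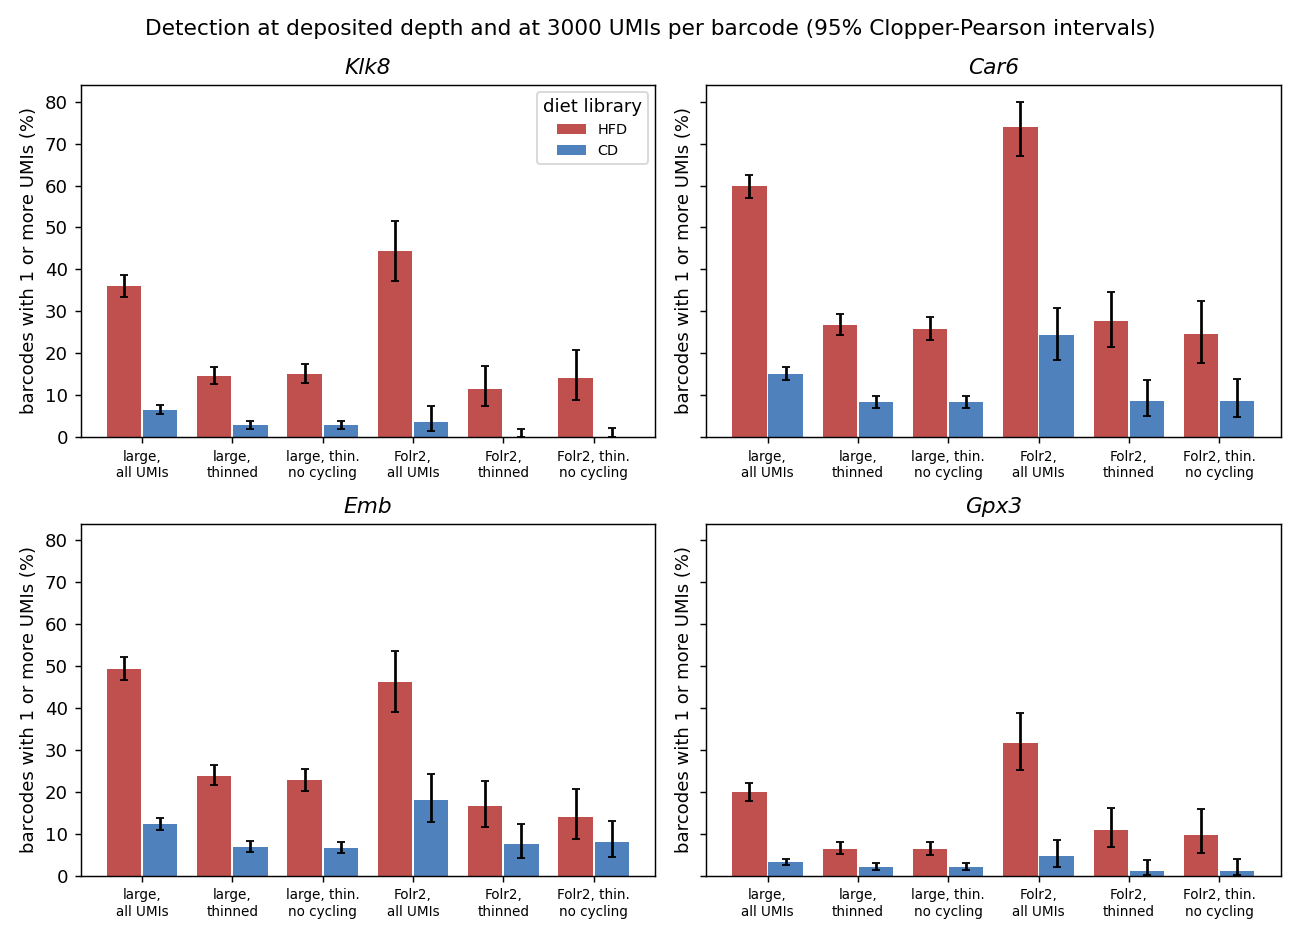
Share of macrophage barcodes with 1 or more UMIs of each gene, with HFD in red left of CD in blue, at deposited depth, thinned to 3000 UMIs, and thinned without barcodes holding Mki67 or Top2a; bars show 95% Clopper-Pearson intervals. Thinning lowers every share, and HFD stays above CD in each pair, with overlapping intervals for Emb in thinned Folr2 macrophages.

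Cycling barcodes were more common in HFD, and the genes were higher in HFD on both sides of that line. In cycling large macrophages, 196 in HFD and 81 in CD, Klk8 was at 54.3 and 12.2 CPM, Car6 at 130 and 25.8, Emb at 141 and 59.7, and Gpx3 at 24.5 and 10.9. In those not cycling, 1145 in HFD and 1983 in CD, Klk8 was at 64.3 and 12.5 CPM, Car6 at 120 and 33.4, Emb at 91.7 and 22.9, and Gpx3 at 21.8 and 6.17. Within each library the Emb level was higher in cycling than in other large macrophages, with intervals apart, at 129 to 154 against 86.8 to 96.8 CPM in HFD and 43.4 to 80.2 against 20.3 to 25.7 CPM in CD. At 3000 UMIs the shares with Emb had overlapping intervals, 28.1% of 89 barcodes with Mki67 or Top2a and 23.6% of 1140 without in HFD, and 13.3% of 30 and 6.82% of 1511 in CD. For the other 3 genes the intervals of cycling and other large macrophages overlapped in both libraries. Among Folr2 macrophages of HFD, 49 cycling barcodes stood against 143 others, with median depths of 24614 and 15449 UMIs. Klk8 was lower in the cycling barcodes, at 41.9 CPM (31.3 to 54.9) against 86.3 CPM (74.7 to 99.1). Emb was higher, at 116 CPM (97.8 to 137) against 53.3 (44.3 to 63.6). Klk8 was found in 42.9% and 44.8% of these barcodes at deposited depth. At 3000 UMIs the shares had overlapping intervals for both genes. Klk8 was in 10.5% of 19 barcodes with Mki67 or Top2a and 11.6% of 173 without, and Emb in 31.6% and 15.03%. How far single barcodes with many Klk8 UMIs carried the CPM difference was not tested. The 12 cycling CD barcodes gave 1 Klk8 and 3 Emb UMIs at deposited depth. Timd4 is a receptor for apoptotic cells that marks long-resident macrophages. Split by Timd4 at 3000 UMIs, the Emb shares of large macrophages had intervals apart in CD and overlapping in HFD. Emb was found in 18.1% of HFD barcodes with Timd4 (13.6 to 23.4%) and 25.4% of those without (22.7 to 28.3%), and in CD in 4.01% (2.56 to 5.96%) and 8.68% (6.98 to 10.6%). Klk8 was in 16.1% and 14.2% in HFD, Car6 in 26.4% and 26.8%, and Gpx3 in 5.51% and 6.77%, with overlapping intervals.

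At deposited depth, barcodes with several copies were also more common in HFD. In HFD 17.8% of large macrophages held 2 or more UMIs of Klk8, against 1.26% in CD, and 4.18% against 0.0484% held 5 or more, with a highest count of 15 in HFD and 5 in CD. For Car6 37.7% against 3.68% held 2 or more, for Emb 28.3% against 2.23%, and for Gpx3 5.97% against 0.581%. These counts are at unequal depth.

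The 4 genes were found together about as often as their separate shares give, with some pairs above and some below. At 3000 UMIs, 54.8% of HFD large macrophages held 1 or more of the 4 genes (51.9 to 57.6%), where the 4 shares multiplied out give 55.5%, and in CD 19.01% did (17.1 to 21.1%), where they give 18.9%. Exactly 2 genes were found in 157 HFD barcodes, where the shares give 158, and in 17 CD barcodes, where they give 19.8. Klk8 and Car6 were together in 56 HFD barcodes, where their shares give 47.8, Car6 and Emb in 79, where they give 78.5, and Emb and Gpx3 in 28, where they give 19.1. Klk8 and Gpx3 were together in 7, where their shares give 11.7. Pairwise Pearson correlations of log2(UMI + 1) among the 4 genes ran from -0.05 to 0.08 over 1229 HFD barcodes and from -0.02 to 0.02 over 1541 CD barcodes; the barcodes of a library share its preparation, and correlations this weak in sparse counts are no finding. Without cycling barcodes, Emb and Gpx3 were together in 24 HFD barcodes, where their shares give 15.03, and in CD in 2, where they give 2.08.

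**Figure D4:**
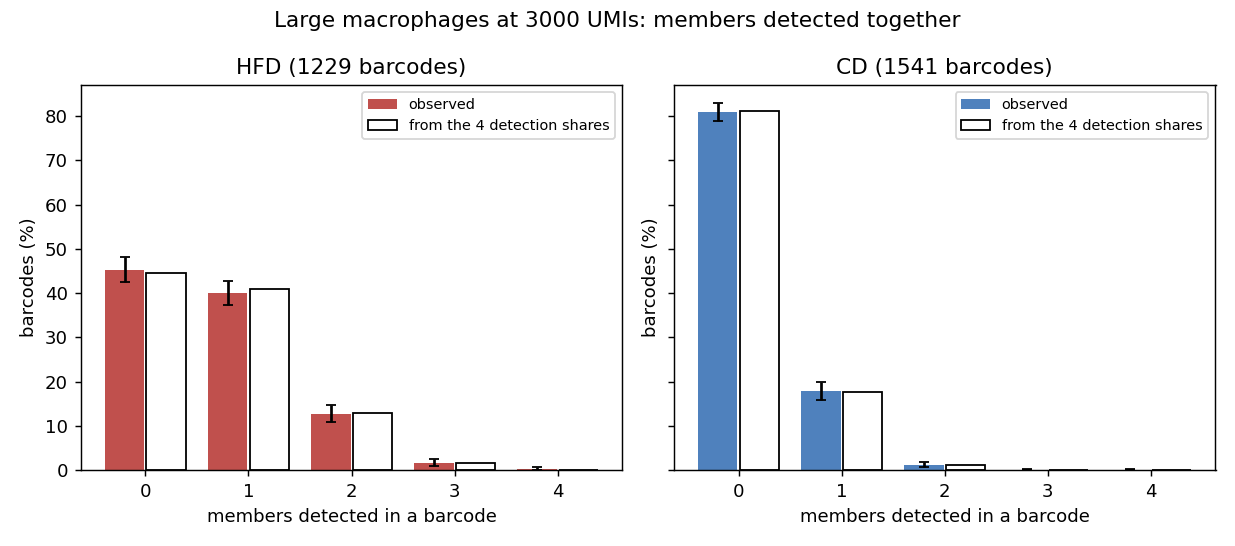
Share of large macrophages by the number of the 4 genes detected in a barcode at 3000 UMIs, HFD left and CD right; filled bars are observed with 95% Clopper-Pearson intervals, open bars are what the 4 detection shares multiplied out give. In HFD 45.2% and in CD 80.99% of barcodes held none of the 4, and observed and open bars lie close together.

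At the edges of the gates several levels rest on few UMIs, and differences across an edge were not tested. Barcodes just outside the large-macrophage gate, with 3 or 4 marker UMIs, had Car6 at 21.9 CPM in HFD and 6.02 in CD. Those just inside, with 5 or 6, had 21.6 and 23.0 CPM. These Car6 levels rest on 16 UMIs in HFD and 3 in CD outside, and on 5 in each library inside. Emb was at 198 CPM in HFD and 182 in CD just outside, and 233 and 106 just inside, above its level in the class as a whole. Just inside, Emb gave 54 UMIs in 35 HFD barcodes and 23 UMIs in 69 CD barcodes. Klk8 was at 31.5 and 10.0 CPM just outside, from 23 UMIs in HFD and 5 in CD. Just inside it was at 30.2 and 4.59 CPM, from 7 UMIs and 1. Gpx3 gave 2 UMIs or fewer in each library on either side. At the Folr2 gate, Klk8 was at 92.5 CPM in HFD and 8.22 in CD with 2 UMIs of Folr2 and Cbr2, and at 34.1 and 4.44 CPM with 3. There it gave 102 UMIs in HFD and 7 in CD outside, and 32 and 2 inside.

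Related genes were taken from lists of each gene's family and pathway. Among 13 kallikreins, the protease family of Klk8, only Klk8 and its direct neighbour on the chromosome, Klk9, had 20 UMIs or more in large macrophages. Klk9 gave 56 UMIs in HFD and 2 in CD, 3.18 and 0.153 CPM, a log2 ratio of 4.38 (2.46 to 7.46), and passed the 20-UMI minimum only through HFD. Of the 42 HFD large macrophages with a Klk9 UMI, 73.8% also held Klk8, against 34.7% of the others, at median depths of 15455 and 11458 UMIs. T barcodes, with 221 Klk8 UMIs in HFD and 304 in CD, gave 1 Klk9 UMI in HFD and 0 in CD. Whether reads of Klk8 RNA were counted for Klk9 was not tested. Klk7 and Klk6, the next kallikreins on the other side, gave 0 UMIs in large macrophages of both libraries. Of 12 substrates, receptors and inhibitors of Klk8, 3 were measured and none was 2-fold apart, beside 10.3% of all measured genes. Nrg1 stands on 2 rows and was left out. The highest was Fn1, the matrix protein fibronectin, at 9831 CPM in HFD and 6313 in CD, a log2 ratio of 0.64.

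Of 16 carbonic anhydrases 5 were measured in large macrophages, Car6 among them. Car9 and Car12, both membrane-bound, were higher in HFD but passed the 20-UMI minimum only through that library. Their number is therefore not read as a result, nor is the median log2 ratio of the 4 genes other than Car6, 1.38. Car9 had 38 UMIs in HFD and 5 in CD, a log2 ratio of 2.49 (1.15 to 4.197). Car12 had 31 and 5 UMIs, a log2 ratio of 2.20 (0.83 to 3.92), and both were below 3 CPM. Car5b and Car7 had log2 ratios of -0.10 and 0.57, with intervals that took in 0. In Folr2 macrophages Car6 and Car5b alone were measured, and Car5b had a log2 ratio of 0.01. Of 9 acid and bicarbonate transporters, 4 were measured, and 1 was 2-fold lower: Hvcn1, the voltage-gated proton channel, which B cells also carry, at 16.7 CPM in HFD and 33.99 in CD (log2 -1.03). Over all genes measured in large macrophages 6.85% were 2-fold or more lower, and nothing is read from this count.

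Of 10 genes of the basigin family and the monocarboxylate transporters, 9 were measured. Emb, chosen for its ratio, was the 1 that was 2-fold apart, and nothing is read from that. Its relatives Bsg, basigin, at 730 CPM in HFD and 599 in CD, and Nptn, neuroplastin, at 135 and 112 CPM, had log2 ratios of 0.29 and 0.27. The lactate exporter Slc16a3 was at 53.5 and 30.3 CPM (log2 0.82; 0.65 to 0.99), while Slc16a7, the transporter embigin is known to accompany, was at 17.9 and 20.7 CPM (log2 -0.21; -0.45 to 0.03). The median over the 8 genes other than Emb was 0.18.

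Gpx3, like Emb, was chosen for its ratio, so nothing is read from its place in its family. Of 8 glutathione peroxidases 4 were measured, and the others had log2 ratios of 0.16 for Gpx1, the main cytosolic enzyme, at 5984 CPM in HFD and 5369 in CD, 0.20 for Gpx4, which reduces lipid hydroperoxides in membranes, and 0.66 for Gpx7. Of all 12591 genes measured in large macrophages, 3.42% were 2-fold or more higher in HFD and 6.85% lower, so the counts below are not read as results. Of 19 other antioxidant enzymes 17 were measured, with a median log2 ratio of 0.01. Prdx4, the peroxiredoxin of the secretory pathway, was the 1 that was 2-fold higher, at 282 CPM in HFD and 118 in CD (log2 1.26; 1.17 to 1.34), and the highest-level enzyme was Prdx5 at 858 and 887 CPM. Of 14 genes of selenoprotein synthesis and other selenoproteins, all 14 were measured, none was 2-fold apart in large macrophages, and the median was -0.21. Selenop, the secreted selenium carrier and another secreted selenoprotein, was lower in HFD, at 512 CPM against 1019 in CD (log2 -0.99; -1.03 to -0.95). In Folr2 macrophages Selenom, a selenoprotein of the endoplasmic reticulum, was 2-fold lower, at 33.5 CPM in HFD and 74.3 in CD (log2 -1.15, interval -1.51 to -0.79). Over all 9870 genes measured in that class 4.97% were 2-fold or more lower.

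The 8 measured genes next or next but one to Car6, Emb and Gpx3 on their chromosomes had log2 ratios from -0.51 to 0.54. In large macrophages they were 0.54 for Eno1 and -0.42 for Rere near Car6, -0.51 for Parp8 and 0.13 for Mrps30 near Emb, and -0.03 for Hint1 and -0.39 for Tnip1 beside Gpx3.

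By barcode-to-barcode likeness within large macrophages at 3000 UMIs, ranked among 5182 genes by the lower of the Pearson correlations in the 2 libraries, the nearest genes were weakly alike. For Klk8 they were Fxyd5, Vmn2r26 and Tmx1, at 0.08 in HFD and 0.07 in CD for Fxyd5. For Car6 they were Fn1, Padi4 and Ythdf3, at 0.08 in HFD and 0.08 in CD for Fn1. For Emb they were S100a11 at 0.10 and 0.11, Cd52 at 0.09 and 0.13, and Ptprc at 0.09 and 0.10. For Gpx3 they were Ptpro, Wdfy2 and Mtus1, at 0.06 and 0.07 for Ptpro. These values are over 1229 HFD and 1541 CD barcodes and are given as a description. They were picked as the highest among 5182 genes, and correlations this weak in sparse counts are no finding. Of these 12 genes, Vmn2r26 was the 1 that was 2-fold apart between the libraries, at 199.9 CPM in HFD and 87.3 in CD (log2 1.19, interval 1.10 to 1.29). Over all 12591 measured genes 10.3% were 2-fold or more apart, and nothing is read from this count.

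**Figure D5:**
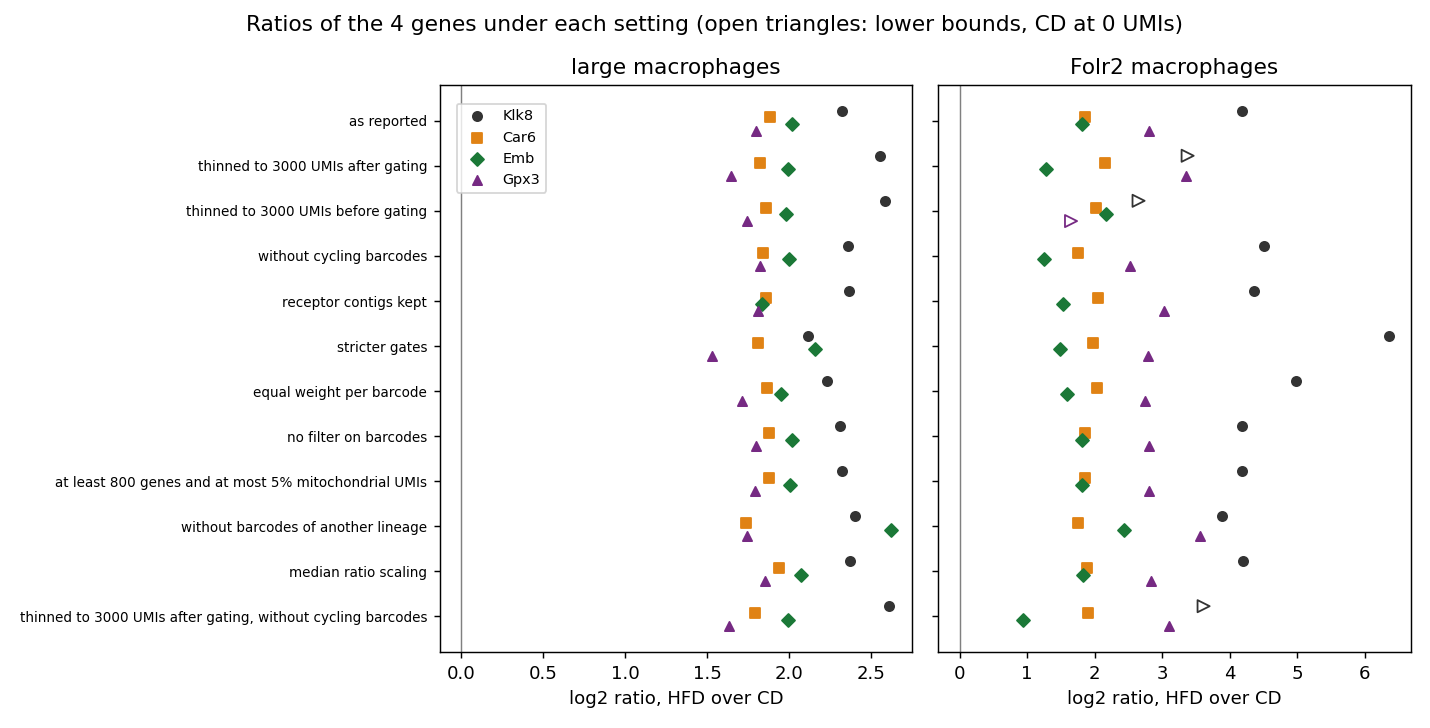
Log2 ratio of HFD over CD for the 4 genes as reported and under 11 other settings of gate, depth, filter and scaling, in large macrophages (left) and Folr2 macrophages (right). Open triangles mark values where CD had 0 UMIs and was set at a floor of 3 UMIs, without counting error in HFD. All points lie above 0, from 1.53 to 2.62 in large macrophages and from 0.94 upward in Folr2 macrophages.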

How the data were processed

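Droplet single-cell expression libraries and B-cell receptor libraries of CD45-sorted peritoneal cells were used. The deposited matrices hold raw UMI counts per gene and barcode, written by Cell Ranger 8.0.1 per the file headers; per the submitters' processing notes, Seurat 4.3.0, Cell Ranger 6.0.1 and the mm39 build were used. Settings of cell calling are not given in the sources used here. The deposited receptor tables, with UMI counts per contig, served only to mark barcodes with a contig (4131 in HFD, 9072 in CD). The matrices hold 6897 HFD and 13227 CD barcodes with 57630074 and 73549582 UMIs.

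A barcode was kept if it had 300 genes or more and no more than 10% of its UMIs from mitochondrial genes. No doublet caller was run; leaving out contig barcodes removes B-cell doublets that have a contig, and other doublets remain. UMIs were summed per class and library and scaled to CPM. Ratios carry the exact conditional interval of Poisson counts, levels exact Poisson intervals and shares Clopper-Pearson intervals. UMI totals are depth-limited: 3 UMIs were 1.47 CPM in CD Folr2 macrophages. With 1 library per diet there is no test and no p-value. The scripts were checked on simulated counts.

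Members and gene lists were chosen with earlier results of these data known. Named genes are the 4 members, list members 2-fold or more apart (at most 6 per list), the highest gene of a list and the 3 most alike genes per member; other genes named, among them neighbours on the chromosome, Slc16a3, Slc16a7, Selenop and the T-cell, NK and Ccr2, Cd209a, Flt3 or Zbtb46 comparisons, were chosen after their values were seen. Python 3.11.15, numpy 2.4.6, scipy 1.17.1 and pandas 2.3.3 were used.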

Additional observations from a re-analysis of the deposited data

Results flagged for a closer look

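Klk8 and Emb had opposite directions in B barcodes and large macrophages. In B barcodes Klk8 was at 3.04 CPM in HFD and 5.06 CPM in CD, a log2 ratio of -0.74 (-1.32 to -0.18), against 2.32 in large macrophages. That level, found in 1.66% of HFD and 2.12% of CD B barcodes, is the one used above as background. T-cell markers summed to 60.4 CPM in HFD and 84.4 in CD B barcodes, against 2723 and 2392 CPM in T barcodes. The part of T-cell RNA in the Klk8 ratio of B barcodes was not tested. Emb was at 48.7 CPM in HFD and 70.7 CPM in CD B barcodes, a log2 ratio of -0.54 (-0.68 to -0.40), against 2.02 in large macrophages. With 1 library per diet, the difference between the classes was not tested.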

How the results depend on the processing

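No paired analysis was possible because each diet has 1 library, and for the same reason no replicate could be left out. All 88 ratios of the 4 genes under alternative settings were above 0. Of these, 4 had 0 UMIs in CD and were computed with CD at a floor of 3 UMIs. They do not show whether the ratio lies inside or outside the counting interval of the reported one. Of the other 84, 75 lay within it and 9 outside. In large macrophages, Klk8 was at 2.58 thinned before gating and 2.61 thinned without cycling barcodes (a setting added after seeing the data), and Emb at 1.83 with contig barcodes kept and 2.62 without barcodes of another lineage. Among the values of Folr2 macrophages, Klk8 was at 6.36 with stricter gates. Thinned before gating, with 0 UMIs in CD and a floor of 3 UMIs over the group, Klk8 was at 2.65 and Gpx3 at 1.65. Their intervals started at 2.16 and 0.96. Emb in Folr2 macrophages was at 1.28 thinned, 1.26 without cycling barcodes, 2.43 without barcodes of another lineage and 0.94 thinned without cycling barcodes. The count of genes 2-fold apart in large macrophages, 1294, was 860 thinned before gating, 803 thinned without cycling barcodes, 5263 with no filter on low counts, and 838 without barcodes of another lineage, where 452 were higher and 386 lower in HFD, against 431 and 863 as reported. In Folr2 macrophages, 830 became 494 thinned, 271 thinned before gating, 467 thinned without cycling barcodes and 3499 with no filter on low counts. Fewer genes were measured after thinning, and the other causes were not tested.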

Other observations

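Within T barcodes, Klk8 was at 129 CPM in HFD and 119 CPM in CD where Cd8a or Cd8b1 was found without Cd4, and at 88.9 and 92.2 CPM where Cd4 was found without them, with overlapping intervals between the libraries and between the subsets (126 and 153 barcodes with Cd8a or Cd8b1, 84 and 153 with Cd4). Over all kept barcodes, Klk8 gave 1955 UMIs in HFD and 836 in CD. Klk9 gave 74 and 3, Klk1 30 and 4, and Klk13 7 and 21. Beside Klk8 the kallikreins were thus scarce, and in CD Klk9 was as scarce as the others.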
